A study of Oryzias latipes and Danio rerio with 6 samples.

Results

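The regions of medaka embryos marked by a Dam-Yap1 fusion were set against those listed under its Dam-GFP control. The members were all 4212 rows of the positive list and all 5190 rows of the control list paired with Yap1, 9402 regions in all, of 52712 regions in the 8 lists of the series. Medaka (Oryzias latipes) embryos, wild type in both groups, received mRNA for DAM-mYap1 or DAM-mGFP, and genomic DNA of whole embryos was taken at stage 16 per the sample labels, whereas the protocol names 80% epiboly. The labels give 40 embryos per replicate and 3 replicates per sample, but each group was deposited as 1 sample with region lists and no value per replicate. No spread between replicates could therefore be computed, no test between the groups was made, and every interval below is a 95% interval that covers counting of regions only. Because the fusion was supplied by injected mRNA, the lists describe Yap1 as it was given to the whole embryo, not Yap1 made from its own gene, and cell types cannot be told apart.

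Yap1 is a transcriptional co-activator at the end of the Hippo pathway, a kinase cascade that restrains tissue growth by keeping Yap1 out of the nucleus. It binds DNA through partners, chiefly the TEAD transcription factors, and in fish embryos it is known for roles in body shape, tissue tension and eye development. In DamID, a protein carries Dam, an adenine methylase from bacteria, which marks the A of GATC near the places that the protein reaches. The enzyme DpnI cuts only methylated GATC, so the sequenced fragments run from 1 methylated site to the next. Dam fused to GFP, a protein with no chromatin target of its own, records where freely diffusing Dam can reach. Positive and control regions here are the lists that the authors gave for a single comparison of Dam-Yap1 with Dam-GFP. The series holds 4 medaka lists but 1 medaka Dam-GFP sample, and this control list is the one paired with Yap1. It should therefore not be read as a full map of the places that Dam-GFP reached.

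The positive and control lists had no bases in common. No positive region overlapped a control region by even 1 bp (0 of 4212), and no region was listed more than once within a list. Both lists belong to the same comparison, and how far the lack of overlap follows from the way they were made was not tested. The positive list placed 3498 regions on the 24 numbered chromosomes, 713 on 462 unplaced sequences and 1 on the mitochondrial sequence. The control list placed 4007 on the chromosomes, 1183 on 651 unplaced sequences and none on the mitochondrial sequence. Although the positive list was the shorter one, the bases it covered on the chromosomes were nearly equal in amount, 3862 kb (0.534% of their 722.8 Mb) against 3835 kb (0.531%) for the control list.

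Positive regions came in a wider range of sizes than control regions. Their lengths had a median of 944.5 bp (909 to 971), with 10% at or below 347 bp and 10% at or above 1966 bp. Control regions had a median of 830 bp (816 to 842), with the same limits at 501 and 1627 bp. The 90th percentile was 5.67 times the 10th in the positive list and 3.25 times in the control list. The median was the higher in the positive list on 21 of 24 chromosomes.

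The extra spread lay at both ends of the size range. Regions from 200 to under 300 bp made up 6.41% (5.71 to 7.19) of the positive list and 0.231% (0.132 to 0.404) of the control list. The next class, from 300 to under 400 bp, made up 7.55% and 2.24%. In the middle the order was the opposite, and regions from 700 to under 1000 bp were 16.1% (15.0 to 17.2) of positive and 32.5% (31.2 to 33.8) of control regions. From 1500 to under 2000 bp the positive share was again the larger, at 15.8% (14.7 to 16.9) against 8.09% (7.38 to 8.87). At 3000 bp and above there were 100 positive regions (2.37%) and 35 control regions (0.674%).

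The positive lengths had a sharp lower limit and a step near 2000 bp. The shortest positive regions, on chromosome 17 (15986158-15986357) and chromosome 9 (24222686-24222885), were each 200 bp long, and the shortest control region had 227 bp. In classes of 100 bp, the positive list held 147 regions from 1800 bp, 108 from 1900 bp and 49 from 2000 bp. The control list held 47, 54 and 43 in the same classes, so no step of that kind stood at 2000 bp there. Its counts fell at a shorter length, from 90 regions from 1700 bp to 47 from 1800 bp.

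**Figure D1:**
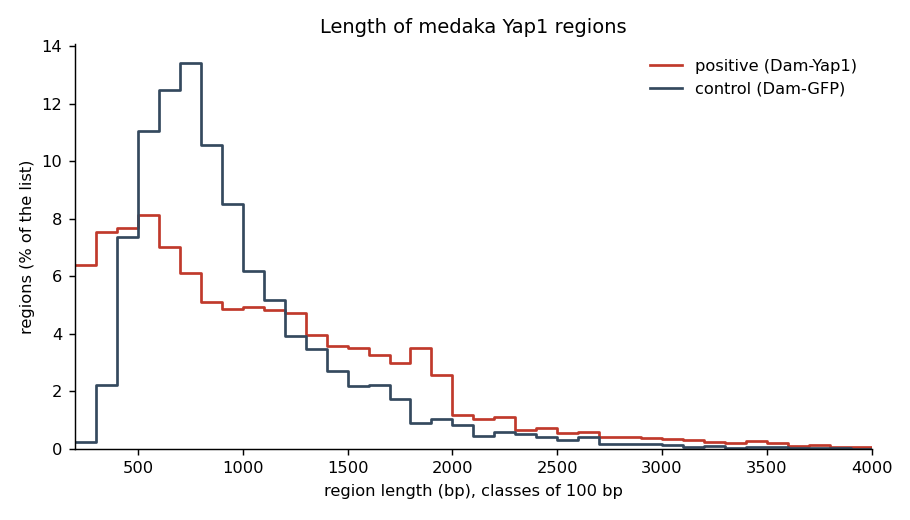
Share of each list in length classes of 100 bp, from 200 to 4000 bp (x axis, bp; y axis, percent of the list), for positive and control regions. The control curve has a single peak between 500 and 1000 bp. The positive curve has a lower and broader peak, declines gradually from its highest class at 500 to 600 bp, and drops at 2000 bp. Outside the axis lie 21 positive and 7 control regions of 4000 bp or more.

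The authors' score, a whole number of unstated quantity, started at 79 in both lists and had a much longer upper tail in the positive list. Its median was 122.5 (121 to 125) in the positive list and 97 (96 to 98) in the control list, and the positive median was the higher on 24 of 24 chromosomes. A score of 200 or more was held by 827 positive regions (19.6%, 18.5 to 20.9) and 46 control regions (0.886%, 0.665 to 1.18). The highest control score was 331, and 252 positive regions (5.98%, 5.31 to 6.74) scored above it. At the other end, 638 positive regions (15.1%) and 1559 control regions (30.0%) lay less than 10 score units above the lowest value. Whether a score unit means the same in both lists is not stated, so these values stand side by side as descriptions.

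Score was close to unrelated to length among positive regions. The rank correlation over the 4212 regions was 0.09, against 0.18 over the 5190 control regions; both describe regions of a single list, which share its libraries. Median scores of positive regions stayed between 115.5 and 137 in all 9 length classes, with the highest value in the class from 2000 to under 3000 bp (124 to 152) and 117.5 (110 to 139) in the 100 regions of 3000 bp or more. Read the other way, the list was ranked by score and divided into 4 classes of 1053 regions. The median length was 851 bp (788 to 903) in the bottom class and 1041 bp (974 to 1105) in the top class. Very short regions were spread over the score range: 7.41% of the bottom class and 5.89% of the top class were under 300 bp, with overlapping intervals (5.98 to 9.15 and 4.62 to 7.48).

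The 10 positive regions of highest score differed widely in length and in distance to their neighbours. Of these, 7 lay on numbered chromosomes and 3 on unplaced sequences. The highest, at 1000, was a 1520 bp region of scaffold2494 (1805-3324) with no other listed region of either list on that sequence. The next on chromosome 17 (29603087-29603599, score 935) had only 513 bp, and its nearest neighbours were a positive region 35.6 kb and a control region 33.0 kb away. On chromosome 19 (19640717-19642317, score 934) the nearest positive region was 425.0 kb away, the longest such distance measured among the 10. On chromosome 24 (11743802-11746424, score 903) a control region lay 6.42 kb away, the closest control region to any of the 10 for which a distance could be measured.

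The other 6 of these regions had scores from 734 to 805. They lay on ultracontig182 (3358916-3359419, score 805), chromosome 9 (25282086-25282484, score 753), scaffold903 (68828-72922, score 753), chromosome 2 (28287357-28289383, score 739), chromosome 22 (4133302-4134949, score 735) and chromosome 15 (12092832-12094228, score 734). Their lengths ran from 399 bp on chromosome 9 to 4095 bp on scaffold903. The scaffold903 region had another positive region 0.850 kb away, and for the other 5 the nearest was 17.8 to 85.0 kb away.

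The 5 longest positive regions had scores from 96 to 324. The longest, 8286 bp of chromosome 20 (13034135-13042420), had score 324, rank 269 of 4212. The next were 5895 bp on scaffold1323 (29773-35667, score 96), 5682 bp on chromosome 16 (24537783-24543464, score 111), 5504 bp on chromosome 7 (21842712-21848215, score 185) and 5437 bp on chromosome 11 (689247-694683, score 104). Control regions came close to several of them, at 1.72 kb on chromosome 11, 5.94 kb on chromosome 7 and 6.40 kb on chromosome 16. None of these positions was tied to a gene, because no source used here names the medaka build.

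Neighbouring positive regions lay from 4 bp to 6205 kb apart. On the chromosomes, the 3474 gaps between neighbouring positive regions had a median of 99.2 kb (91.9 to 105.5), with 10% at or below 4.78 kb and 10% at or above 530.6 kb. The 3983 control gaps had a median of 90.9 kb (85.3 to 97.6), with the same limits at 8.58 and 440.1 kb. The lower of these limits was the smaller in the positive list and the upper the larger. The order of the medians was not stable: without the first and last 1 Mb of each chromosome they were 99.4 kb for positive and 104.2 kb for control regions.

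The shortest gaps had a single size. No gap in either list was under 4 bp, and 91 positive gaps (2.62%, 2.14 to 3.21) and 33 control gaps (0.829%, 0.591 to 1.16) were exactly 4 bp, the length of the GATC site. No gap was 5 bp, and only 10 other positive gaps were under 50 bp. The 177 positive regions in these 4 bp pairs were short, with a median of 644 bp (534 to 814), and a pair spanned a median of 1498 bp (1343 to 1680), its 4 bp gap included. Their median score was 136 (121 to 152). The 66 control regions in such pairs were similar in length, with a median of 673 bp (594 to 841). A control pair spanned a median of 1513 bp (1189 to 1828), and the median score was 109.5 (99 to 115). The rank correlation of the scores within a pair was 0.16 over the 91 positive pairs. Whether these gaps hold a GATC was not tested, since no genome was used.

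**Figure D2:**
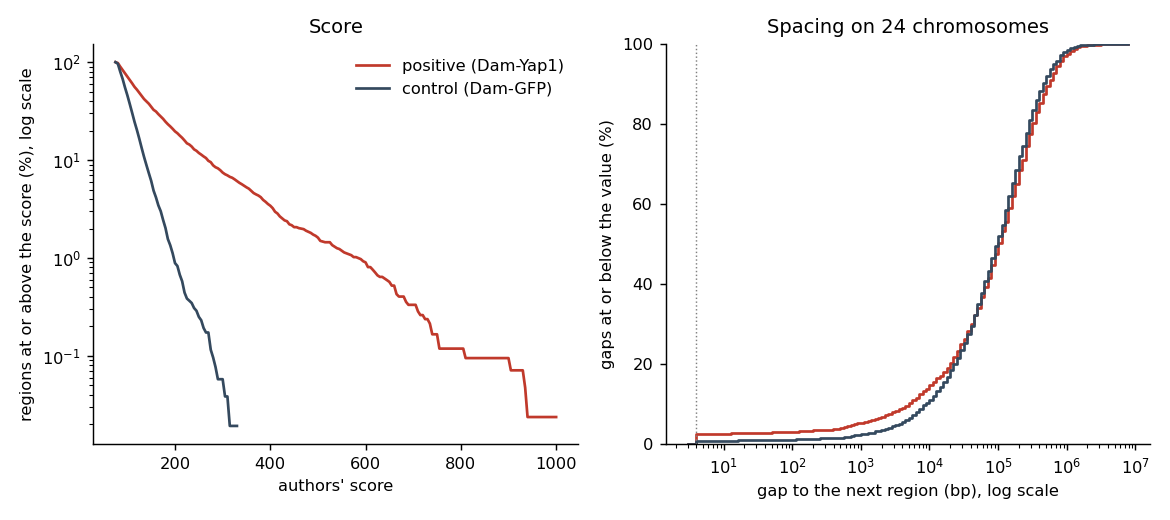
Left, percent of regions at or above each authors' score (x axis, score; y axis, log scale); right, percent of gaps between neighbouring regions at or below each size on 24 chromosomes (x axis, bp, log scale; the dotted line marks 4 bp). The positive curve reaches 1000 and the control curve ends at 331 on the left; on the right the positive curve starts with a step of 2.62% at 4 bp and lies above the control curve to beyond 10 kb.

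Positive regions were the more crowded at short range. Another positive region lay within 10 kb of 930 of 3498 positive regions (26.6%, 25.1 to 28.1), while 822 of 4007 control regions had a control neighbour that close (20.5%, 19.3 to 21.8), although the control list held more regions. Within 1 kb the shares were 10.4% (9.41 to 11.4) and 4.69% (4.08 to 5.39). Regions in 4 bp pairs were 177 of these 363 positive and 66 of these 188 control regions, so such pairs make up part of the difference. Gaps of 101 to 1000 bp were 2.36% (1.91 to 2.92) of positive and 1.28% (0.975 to 1.68) of control gaps. At 50 kb the order was no longer the same, with 54.2% of positive and 55.7% of control regions. Positive regions with a neighbour within 10 kb had a median score of 127 (122 to 132) and those without one 120 (118 to 122), and their median lengths were 946.5 and 942 bp.

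Groups of positive regions linked by gaps of at most 10 kb numbered 418, of which 347 held 2 regions, 55 held 3 and 16 held 4 or more. The control list had 382 such groups, with 333 of 2, 42 of 3 and 7 of 4 or more. The largest positive group held 9 regions in 46.0 kb of chromosome 11 (4521611-4567615), of which the regions covered 28.1%. Its scores ran from 87 to 203 with a median of 132, and 1 of its gaps was 4 bp, between regions of 1039 and 1170 bp. Groups of 5 lay on chromosome 7 (10608376-10633531, highest score 212) and chromosome 24 (6606899-6621426, highest score 287). Of the 13 groups of 4 regions, the 2 of longest span lay on chromosome 13 (1960586-1979344, highest score 310) and chromosome 15 (2301735-2319570, highest score 275). No control region lay inside any of these 5 groups, chosen by number of regions and then by span. None of them spanned more than 46.0 kb. The mean control density was 5.56 regions per Mb, and the window from 4 to 5 Mb of chromosome 11, around the largest group, held 12 control regions. Whether the groups held fewer control regions than other stretches of their length was not tested.

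Regions of the same list also lay closer together than regions of different lists. In the joint order of both lists along the chromosomes, 1902 neighbouring pairs were both positive, with a median gap of 38.5 kb (35.0 to 42.1), and 2401 were both control, with 47.3 kb (43.6 to 50.4). The 3178 mixed pairs had a median gap of 56.0 kb (52.3 to 59.3). Gaps of at most 10 kb made up 26.7% (24.7 to 28.7) of positive, 18.0% (16.5 to 19.5) of control and 12.4% (11.3 to 13.6) of mixed pairs. These include the 4 bp gaps, of which 91 were in positive, 33 in control and 4 in mixed pairs. The median distance from a positive region to the nearest control region was 60.4 kb (57.5 to 64.2), and 409 of 3498 (11.7%, 10.7 to 12.8) had one within 10 kb. The nearest listed region was another positive one for 57.3% (55.7 to 59.0) of positive regions, and positive regions made up 46.6% of all regions on the chromosomes. Both lists belong to the same comparison, and how far the way they were made keeps mixed pairs apart was not tested.

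Positive density differed more between chromosomes than control density did. Over the 24 chromosomes the positive list had 4.88 ± 1.08 regions per Mb (mean, SD over chromosomes; coefficient of variation 22.2%), and the control list 5.56 ± 0.732 (13.2%). Chromosomes are not replicates, and the SD describes their variety only. The highest positive density was 3.60 times the lowest, against 1.70 times in the control list. The lowest was that of chromosome 2, at 1.80 per Mb, and the next lowest that of chromosome 18, at 3.09, so the positive range rests in part on chromosome 2. The densities of both lists were only loosely related, with a rank correlation of 0.20 over the 24 chromosomes. Longer chromosomes had somewhat lower positive densities (rank correlation with length of -0.33, and of -0.13 for the control list); lengths were lower bounds taken from the last listed region.

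The lowest positive densities were on chromosomes 2, 18 and 14, and the highest on chromosomes 8, 20 and 7. Chromosome 2 held 56 positive regions, 1.80 per Mb (1.36 to 2.34), and 157 control regions, 5.06 per Mb (4.30 to 5.91). Chromosome 18 held 92 positive regions, 3.09 per Mb (2.49 to 3.79), and 168 control regions, 5.64 per Mb (4.82 to 6.56). Chromosome 14 had 3.75 positive (3.12 to 4.47) and 5.09 control regions per Mb (4.36 to 5.91). On these 3 chromosomes the positive density was the lower, as it was on 18 of 24 chromosomes in all. The intervals of both densities overlapped on chromosome 14. They did not overlap on chromosomes 2 and 18, and the same held for chromosomes 1 and 23.

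At the other end, chromosome 8 had 168 positive regions, 6.50 per Mb (5.55 to 7.55), and was also the densest chromosome of the control list, at 7.93 per Mb (6.88 to 9.09). Chromosome 20 had 155 positive regions, 6.27 per Mb (5.32 to 7.34), but only 4.86 control regions per Mb (4.03 to 5.81). Chromosome 7 had 6.19 positive (5.32 to 7.16) and 5.61 control regions per Mb (4.79 to 6.54). The high positive density of chromosome 8 was therefore shared by the control list, and that of chromosome 20 was not.

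**Figure D3:**
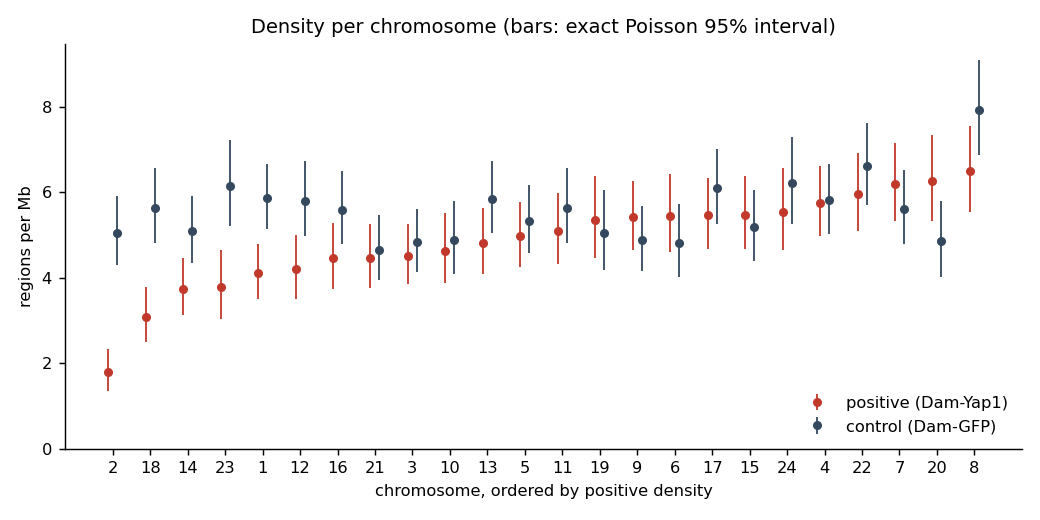
Positive and control regions per Mb on each of 24 chromosomes, ordered by positive density (x axis, chromosome; y axis, regions per Mb; bars, exact Poisson 95% interval). Chromosome 2 stands lowest in the positive list at 1.80 per Mb, and chromosome 8 is highest in both lists.

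The control density was the higher on 18 of 24 chromosomes. Relative to the ratio of positive to control regions over all chromosomes, 1 of 24 chromosomes (4.17%), chromosome 20, was at least 1.3 times higher, and 3 of 24 (12.5%), chromosomes 2, 18 and 23, were at least 1.3 times lower. Positive regions were 56.4% (50.3 to 62.3, exact binomial) of the regions of chromosome 20. They were 26.3% (20.5 to 32.7) of those of chromosome 2, 35.4% (29.6 to 41.5) of chromosome 18 and 38.1% (31.9 to 44.6) of chromosome 23. Chromosome 6, at 53.1% (47.0 to 59.2), came just short of the upper limit with a ratio of 1.298. Among regions at or above the median score of their list, 6 chromosomes were above it (4, 6, 15, 19, 20 and 21) and 4 below it (1, 2, 18 and 23). The upper count therefore rests on where the limit and the score are set.

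Median length and score of positive regions also varied between chromosomes. The median length per chromosome ran from 743.5 bp (537 to 989) on chromosome 18 to 1165 bp (999 to 1273) on chromosome 3. The median score ran from 110 (100 to 124) on chromosome 23 to 132 (120 to 141) on chromosome 4. The rank correlation of positive density with the median score was -0.01 and with the median length -0.20 over the 24 chromosomes. Chromosome 2, with few regions, had a median length of 1091 bp (743 to 1454) and 1 of the 10 highest scores. Its median score of 112.5 (105 to 143) was close to the lowest, 110 on chromosome 23, and the mean of the 24 medians was 121.5.

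Chromosome 2 also held long stretches with few or no regions of either list. Its first positive region began at 4.44 Mb and its first control region at 4.80 Mb. The longest stretch between neighbouring positive regions on any chromosome lay there, 6205 kb from 7099397 to 13304138, and it held only 3 control regions. Of the 32 windows of 1 Mb on the chromosome, 13 had no positive region, 9 of them had no control region either, and 8 had no region of any medaka list. When windows without a region of any medaka list were left out on all chromosomes, chromosome 2 had 2.43 positive regions per Mb. It remained the lowest, below chromosome 18 at 3.31, and its control density was 6.81. The window with most positive regions was the one from 28 to 29 Mb, with 12 positive and 12 control regions.

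The 7 next longest stretches between neighbouring positive regions, with chromosome ends left out, held from 0 to 16 control regions. On chromosome 14 (25001998-28236455, 3234 kb) and chromosome 18 (22660839-25068398, 2408 kb) there was no control region either, and on chromosome 1 (6766948-9616823, 2850 kb) only 1. A stretch of chromosome 21 (2212689-5170791, 2958 kb) held 4 control regions, again with a large empty core of 2426 kb. In contrast, a stretch of 2914 kb on chromosome 1 (35436015-38350050) held 16 control regions and no positive one. The other two had 4 control regions on chromosome 14 (5810072-8187143, 2377 kb) and 8 on chromosome 11 (11241898-13488829, 2247 kb).

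Summed over the 24 chromosomes, positive regions were spread more evenly along the chromosome than control regions. Cut into 10 equal parts, each chromosome's first part held 326 of the 3498 positive regions (9.32%, 8.40 to 10.3) and its last part 412 (11.8%, 10.8 to 12.9), and the 8 parts between held 8.78% to 11.1%. The control list had 15.5% (14.4 to 16.6) in the first and 17.0% (15.9 to 18.2) in the last part, and as little as 6.89% (6.14 to 7.71) in the fourth. Over the 2 outermost parts, the shares were 21.1% (19.8 to 22.5) for positive and 32.5% (31.1 to 34.0) for control regions. Single chromosomes were less even, with 0 to 44 positive regions in a part. The positive share of the outermost parts was the lower on 22 of 24 chromosomes. On chromosome 2 it was the higher, at 32.1% against 21.7%, and likewise on chromosome 15, at 36.6% against 29.0%. The first part of chromosome 2 held no region of either list, so its shares came from the last part alone. Of its 56 positive regions, 18 lay beyond 28 Mb, 12 of them in the window from 28 to 29 Mb.

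In the middle of the chromosomes the positive list outnumbered the control list. The 4 middle parts held 1370 positive and 1184 control regions, 39.2% (37.6 to 40.8) and 29.5% (28.2 to 31.0) of each list, and on 19 of 24 chromosomes the positive list had the larger share there. Positive regions made up 56.7% (52.8 to 60.6) of both lists in the fifth part and 34.5% (31.4 to 37.6) in the first. Positive scores varied little along the chromosome, with medians from 115 (110 to 122) in the last part to 128 (120 to 138 and 119 to 139) in the third and the fourth. The control medians ran from 94 to 99.

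**Figure D4:**
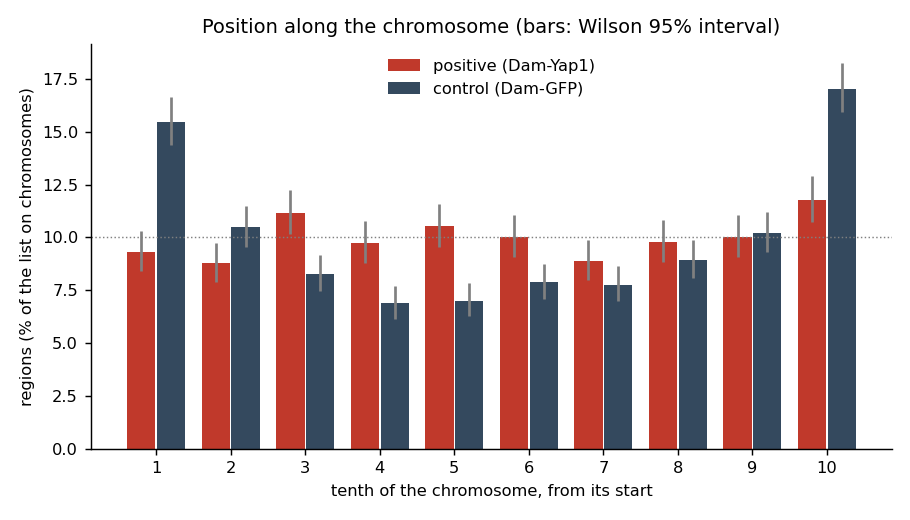
Percent of each list in 10 equal parts of a chromosome, summed over 24 chromosomes (x axis, part from the chromosome's start; y axis, percent of the list's chromosomal regions; bars, Wilson 95% interval; the dotted line marks an even spread). Positive regions stay between 8.78% and 11.8% in every part, and control regions reach 15.5% and 17.0% in the outermost ones.

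In windows of 1 Mb, positive regions were thinly and unevenly spread. The 733 windows held 4.77 ± 3.31 positive regions (mean, SD over windows) and 5.47 ± 3.90 control regions, with medians of 4 and 5. The variance was 2.29 times the mean in the positive list and 2.79 times in the control list. No positive region was listed in 46 windows, of which 22 had no control region either. The 56 windows with 10 or more positive regions held 691 of them, and the 110 windows with 10 or more control regions held 1384 of those. The rank correlation of both counts over the 733 windows, which share their sequence content, was 0.23.

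The 5 windows richest in positive regions were not the 5 richest in control regions, but each held more control regions than the mean of 5.47 per window. The window from 6 to 7 Mb of chromosome 24 held 22 positive and 7 control regions, and its 22 positive regions formed 10 groups at the 10 kb limit, with a median score of 117.5 and a highest score of 526. Next came chromosome 15 from 28 to 29 Mb with 19 positive and 10 control regions, and chromosome 11 from 4 to 5 Mb with 18 and 12. The remaining windows were chromosome 1 from 31 to 32 Mb, with 17 and 14, and chromosome 11 from 18 to 19 Mb, with 16 and 6. The windows with most control regions lay near chromosome ends. On chromosome 22 from 1 to 2 Mb there were 26 control regions and 1 positive region, and on chromosome 16 from 29 to 30 Mb there were 24 and 1. In 3 more windows, at 39 to 40 Mb and 0 to 1 Mb of chromosome 1 and 0 to 1 Mb of chromosome 12, there were 20 or 21 control and 4 or 5 positive regions.

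**Figure D5:**
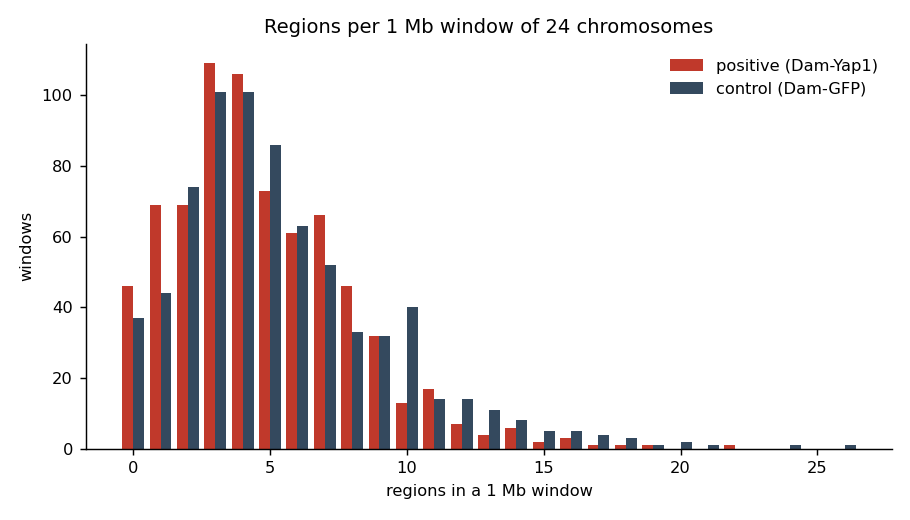
Number of 1 Mb windows (y axis) that hold each count of regions (x axis), for positive and control regions on 24 chromosomes. Both lists are most often at 3 or 4 regions per window; the positive list ends at 22 and the control list at 26.

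Regions on unplaced sequences resembled those on chromosomes. Their median length was 954 bp (879 to 999) against 943.5 bp (902 to 974), and their median score 127 (122 to 132) against 122 (120 to 124). In the control list the medians were 851 bp against 823 bp, and 99 against 97. In all, 59 positive and 33 control regions began at the first base of their sequence, where the edge is that of the sequence and not of a fragment.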

How the data were processed

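Per the labels' protocols, genomic DNA was digested with DpnII, cleaved with DpnI at methylated GATC, ligated to adapters and amplified by 25 cycles of PCR before sequencing. By this design the fragment ends should lie at GATC sites, and amplification can favour some fragments, but neither was measured here. The submitters' processing notes name the tools bedtools, Bowtie2, cutadapt and SAMtools, and as build only the zebrafish assembly GRCz10 (danRer10). Neither the medaka build nor the region caller is given there. On 5 chromosomes the last region lies over 1 Mb beyond the last gene of the medaka assembly ASM223467v1, so its gene positions were not used. The deposited lists hold position and a score made by the authors, with no counts, so depth is unknown. Gaps, densities and distances were computed with Python 3.11.15, pandas 2.3.3 and SciPy 1.17.1, and the functions were tested on simulated data. Positions are 1-based. Chromosome length is the last region end over the 4 medaka lists. A region counts where its centre lies. Medians carry order-statistic intervals, shares Wilson or exact binomial intervals and counts exact Poisson intervals at 95%. Named are the 10 highest scores, 5 longest regions, 5 largest groups at 10 kb (ties by span), 5 windows of each list and 3 chromosomes at each end; the 2 shortest regions, the 1.3-fold limit and the empty stretches were chosen after values were seen. Members and lists were chosen with earlier results of these data known.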

Additional observations from a re-analysis of the deposited data

Results flagged for a closer look

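The positive list held 1 region on the mitochondrial sequence, outside the comparison over chromosomes. It spanned positions 14676 to 16714 of that sequence, 2039 bp, with an authors' score of 294, rank 333 of 4212 positive regions. The control list had no region on that sequence. The region was listed in 1 sample without replicate values, so its reliability is unknown.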

How the results depend on the processing

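Of 90 alternative values for 24 results, 60 stayed within the interval of the reported value, or within 1.5 times a count. Among these 60 are the alternatives for the overlap of both lists, which could not have differed from its count of 0. The order of positive and control turned in 3 results under 1 alternative each: the median gap, the share with a neighbour and the density of chromosome 8 over the mean (1.35 and 1.34 after merging regions within 10 kb, against 1.33 and 1.43). Keeping regions at or above the median score of their list moved the median length to 989 bp (positive) and 876 bp (control), the median gap to 221.3 and 179.4 kb, the outermost share to 19.6% and 34.1% and the distance to a control region to 122.1 kb; fewer regions remain by construction. Merging regions within 1 kb gave median lengths of 1003 and 843.5 bp. A limit of 200 bp in place of 300 bp left 0 and 0 regions, and 500 bp gave 21.6% and 9.83%. Neighbours within 5 kb were found for 19.1% and 12.2%, and within 50 kb for 54.2% and 55.7%, the order turned. Without the first and last 1 Mb the control gap was 104.2 kb, now above the positive gap of 99.4 kb, the control share with a neighbour 18.5% and the distance 64.8 kb. The 4000 top-scored control regions had 17.3%, and merging control regions within 10 kb gave an outermost share of 31.0%. Leaving out empty windows, an alternative chosen after seeing the data, moved the density of chromosome 2 over the mean from 0.370 to 0.490 (positive) and from 0.909 to 1.19 (control), which there passes from below to above the mean. Chromosomes 1.3-fold above the overall ratio numbered 1, but 2 by bases covered, 6 at or above the median score, 3 without the ends, and 6 and 0 at limits of 1.2 and 1.5; at 1.2-fold, 5 were below. The GATC and motif counts were not run, since no genome of the build was used. No paired analysis was possible because each group is 1 sample.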
